A study of Mus musculus with 6 samples.

Results

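The genes described here are 10 growth arrest and cell death genes that the transcription factors FOXO or p53 are known to drive, namely Bmf, Btg2, Cdkn1a, Ccng1, Mdm2, Sesn1, Trp53inp1, Pik3ip1, Txnip and Bcl6. They were chosen by function from genes whose TPM in control and NCOA4 siRNA libraries was already known, so their differences are given as a description, with no test. TPM is a share of a library's transcripts corrected for gene length, so levels of different genes can be compared. All 10 were found among the 55487 gene identifiers of the files, and all 10 were among the 13829 that passed the expression filter, a TPM averaging 0.5 or more over the libraries. Macrophages of the mouse line J774, clone E, were transfected either with a negative control siRNA or with a single siRNA against NCOA4, the receptor that delivers ferritin to autophagosomes. The control group carried the control siRNA with no gene targeted, and both groups had 3 biological replicates. The time of RNA harvest after transfection is not given for these libraries in the sources used here. RNA was sequenced from stranded poly(A) libraries, to ask how NCOA4 depletion changed the macrophage transcriptome.

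p53 is held at a low level by the ubiquitin ligase MDM2, and stress that frees it from MDM2 lets it switch on genes for cell cycle arrest, DNA repair and apoptosis. FOXO factors are kept out of the nucleus when growth factor signaling through PI3K and AKT is active, and enter it to drive arrest, death and stress resistance genes when this signaling falls. Both pathways converge on several genes, including Cdkn1a and Sesn1, and in macrophages they are known to limit proliferation and to respond to oxidative stress.

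Of the 10 genes, 7 had every NCOA4 siRNA library above every control library, 2 had every NCOA4 siRNA library below, and only Cdkn1a overlapped. Over all tested genes the same was seen for 16.6% in the upward and 11.8% in the downward direction. Since the genes were chosen with these values known, the counts describe them and nothing is read from the comparison. The log2 difference between the groups, on the log2(TPM + 0.5) scale used throughout, ran from -0.48 for Bcl6 to 1.58 for Bmf, with a median of 0.44 against 0.031 over all tested genes. A bulk measurement cannot tell a change in RNA per cell from a change in the number of cells that express a gene.

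Ncoa4 itself was at 19.7, 22.5 and 22.4 TPM in control replicates 1 to 3 and at 9.63, 8.60 and 8.88 TPM in NCOA4 siRNA replicates 1 to 3, a ratio of means of 0.419 (log2 difference -1.21, adjusted p = 0.00127 from limma). Rebuilt reads on genes numbered between 15502109 and 18282067 per library. Control replicate 1 stood apart from the other control libraries, with a chi-square per gene of 11.6 and 11.7 against replicates 2 and 3, compared with 3.60 between these and 1.96 to 2.35 among NCOA4 siRNA replicates. It also had 12.9% of its TPM on the mitochondrial genome, against 9.36% to 10.2% in the other libraries. Of the macrophage markers listed, 8 of 9 were tested, and 4 rose with NCOA4 siRNA while 0 fell by limma (3.11% and 2.31% of all tested genes). At an unadjusted p under 0.05, 7 were higher and 1 lower (12.7% and 8.84% of all tested genes). With limma-voom 7 were also called higher and 1 lower (6.91% and 4.00% of the genes with rebuilt reads). By limma, leaving out NCOA4 siRNA replicates 1, 2 and 3 in turn left 1, 1 and 2 markers that rose. With eBayes lacking a trend 1 rose. Their summed level was 7550 to 7720 TPM in control and 8100 to 8270 TPM in NCOA4 siRNA libraries, and its part in the results below was not tested. T cell, B cell and fibroblast markers summed to at most 0.340 TPM in any library, and all 5 erythroid markers were at 0.

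Sequence around the start sites of the genes was searched for the FOXO motif GTAAACA on both strands and for the p53 half-site, a degenerate motif of 10 bases that reads alike on both strands. The windows ran from 250 bases before to 50 bases after each RefSeq start site (GRCm38.p6, the same assembly as the mm10 build of the files), and 9 of the 10 genes had at least 1 such window, 14 in all. The FOXO motif was in 3 of the 14 windows, against 3.65% of all 32851 windows, and the p53 half-site was in 5 of the 14, against 8.36% of all. All matches are shown so that the letters behind these counts can be read. Capitals mark the matched motif, and each line reads 5′ to 3′ on the strand of the gene.

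Cdkn1a, p53 half-sites with the bases between them, chr17:29090901-29090942, plus strand: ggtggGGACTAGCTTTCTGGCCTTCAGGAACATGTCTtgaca
Mdm2, p53 half-site, chr10:117710925-117710954, minus strand: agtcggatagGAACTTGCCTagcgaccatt
Ccng1, p53 half-site, chr11:40755452-40755481, minus strand: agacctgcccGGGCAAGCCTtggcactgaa
Sesn1, p53 half-site, chr10:41887256-41887285, plus strand: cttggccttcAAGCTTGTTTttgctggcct
Bmf, p53 half-site, chr2:118544781-118544810, minus strand: cccaagtgaaGGGCTTGCCTcttgccgaat
Txnip, FOXO motif, chr3:96557825-96557853, plus strand: ttggaggcctgGTAAACAagggccaagta
Sesn1, FOXO motif, chr10:41810585-41810613, plus strand: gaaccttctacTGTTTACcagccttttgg
Mdm2, FOXO motif, chr10:117710894-117710922, minus strand: ggtttcgagcgGTAAACAcaaccgcgcgg

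Within the windows searched, Cdkn1a was the only one of these genes with a pair of half-sites separated by no more than 13 bases. Such a combination was held by 24 of the 32851 windows (0.0731%). The Cdkn1a pair began 73 bases before 1 of its 2 start sites. Trp53inp1 had no window, and sequence outside the windows was not searched. The Mdm2 window held both motifs, which did not overlap, and Sesn1 held them in the windows of different start sites. The Sesn1 FOXO motif lay 22 bases after its start site, and the other stretches in capitals began 73 to 213 bases before theirs. The second half-site of the Cdkn1a pair began 51 bases before the start site. A match is a description of the letters only, and no binding was measured.

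Bmf (chromosome 2, 118528757 to 118549687) showed the largest difference of the 10 genes. It encodes a BH3-only protein that promotes apoptosis by binding survival proteins of the BCL2 family. Its level was 2.52, 2.64 and 2.78 TPM in control replicates 1 to 3 and 10.3, 7.55 and 9.02 TPM in NCOA4 siRNA replicates 1 to 3. The groups were far apart, although the spread was wider with NCOA4 siRNA, where replicate 2 was the lowest. The means were 2.64 ± 0.128 and 8.96 ± 1.39 TPM (SD, n = 3 each), a ratio of 3.39. The log2 difference was 1.58 (standard error 0.126), and 0.318% of all tested genes had a larger one. These values rest on 76 to 315 reads per library, so that counting error alone was 11.5% in the shallowest, and limma-voom on the reads gave a log2 difference of 1.76.

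The p53 targets Btg2 and Trp53inp1 followed. Btg2 (chromosome 1, 134075170 to 134079120) encodes an antiproliferative protein that recruits the CCR4-NOT deadenylase to messenger RNA. It was at 5.27, 4.63 and 6.01 TPM in control and 12.4, 12.0 and 13.4 TPM in NCOA4 siRNA libraries, a ratio of means of 2.38 and a log2 difference of 1.18 (standard error 0.104). Every NCOA4 siRNA value thus lay well above the highest control value. Trp53inp1 (chromosome 4, 11156431 to 11174379) encodes a stress protein that promotes p53-dependent death and autophagy. It was at 5.27, 7.34 and 5.12 TPM in control and 12.5, 10.5 and 10.9 TPM in NCOA4 siRNA libraries, with a log2 difference of 0.89 (standard error 0.145). Control replicate 2 was the highest control library for this gene and still lay below all NCOA4 siRNA libraries. The log2 difference was 1.05 without that library, and ran from 0.81 to 1.05 with each library left out in turn.

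Sesn1 (chromosome 10, 41809935 to 41908424), a target of both factors, encodes a sestrin, a stress-induced inhibitor of mTORC1 signaling. Its level was 22.8, 27.6 and 27.9 TPM in control and 44.0, 43.5 and 42.7 TPM in NCOA4 siRNA libraries. The NCOA4 siRNA libraries were nearly alike (SD 0.641 TPM), whereas control replicate 1 was below the other control libraries (SD 2.88 TPM). The log2 difference was 0.73 (standard error 0.0817), and 0.64 without control replicate 1. Pik3ip1 (chromosome 11, 3330401 to 3342971), whose product inhibits PI3K at the plasma membrane, was the lowest in level of the 10 genes. It was at 2.00, 1.93 and 2.07 TPM in control and 2.86, 3.18 and 3.76 TPM in NCOA4 siRNA libraries, a ratio of means of 1.64. Its log2 difference of 0.59 (standard error 0.136) rests on 46 to 97 reads per library, with a counting error of 14.7% at the lowest count.

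Ccng1 and Txnip were abundant and differed less. Ccng1 (chromosome 11, 40748552 to 40755311) encodes cyclin G1, a p53 target that acts with protein phosphatase 2A on MDM2. It was at 249, 259 and 243 TPM in control and 312, 304 and 311 TPM in NCOA4 siRNA libraries, a ratio of means of 1.23 and a log2 difference of 0.30 (standard error 0.0383). The groups did not overlap, and their distance was several times the spread within either. Txnip (chromosome 3, 96557957 to 96561883), which encodes a glucose-responsive inhibitor of thioredoxin and of glucose uptake, had the highest level of the 10 genes. It was at 475, 527 and 516 TPM in control and 550, 557 and 571 TPM in NCOA4 siRNA libraries, a log2 difference of 0.14 (standard error 0.0487). Control replicate 1 was the lowest library for Txnip, and the log2 difference without it was 0.10.

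Cdkn1a (chromosome 17, 29090976 to 29100727) encodes p21, the inhibitor of cyclin-dependent kinases through which p53 arrests the cell cycle. It was at 274, 264 and 282 TPM in control and 280, 276 and 288 TPM in NCOA4 siRNA libraries. These ranges overlapped, at 5221 to 6176 reads per library and a counting error of 1.38% at the lowest count. The log2 difference was 0.04 (standard error 0.0400), 47.1% of all tested genes had a larger one, and it turned to -0.02 when libraries were centred on their medians. Cdkn1a was thus highly expressed in both groups, with only 3.77% of tested genes above its mean control level. Mdm2 (chromosome 10, 117688875 to 117710758), the p53 target that closes the feedback loop on p53, was lower with NCOA4 siRNA. It was at 86.5, 80.1 and 80.6 TPM in control and 77.9, 71.6 and 70.9 TPM in NCOA4 siRNA libraries. Its log2 difference was -0.17 (standard error 0.0540), and -0.13 without control replicate 1, the highest library for this gene. The groups were adjacent, with the highest NCOA4 siRNA library just under the lowest control library.

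Bcl6 (chromosome 16, 23965052 to 23988852), a FOXO target that encodes a transcriptional repressor of inflammatory and cell cycle genes, was the lowest of the 10 in difference. It was at 15.1, 14.8 and 14.6 TPM in control and 10.7, 10.6 and 10.1 TPM in NCOA4 siRNA libraries, a ratio of means of 0.709. Both groups were narrow (SD 0.269 and 0.320 TPM) and well apart. The log2 difference was -0.48 (standard error 0.0567), and 96.9% of all tested genes had a larger one.

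**Figure D1:**
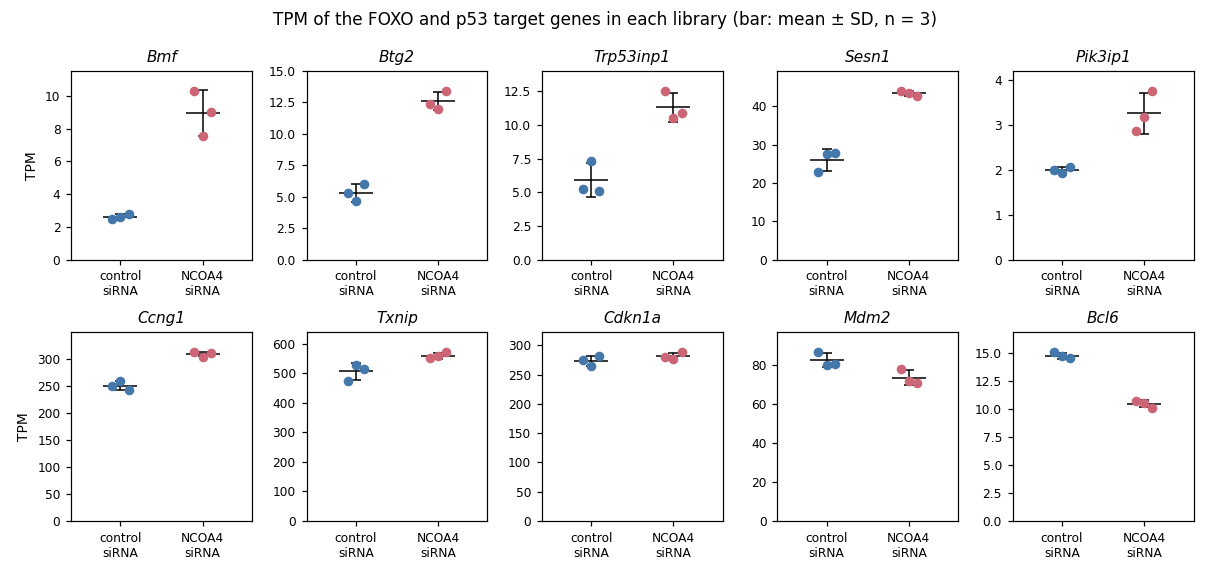
TPM (vertical axes, linear from 0) of the 10 genes in 3 control siRNA and 3 NCOA4 siRNA libraries, where points are libraries and bars are the mean with its SD. Bmf went from a mean of 2.64 to 8.96 TPM and Bcl6 from 14.8 to 10.5 TPM, while the points of Cdkn1a overlap.

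The order of levels, which TPM allows because it is per length, shifted between the groups. In control libraries the order was Txnip, Cdkn1a, Ccng1, Mdm2, Sesn1, Bcl6, Trp53inp1, Btg2, Bmf and Pik3ip1. Of these neighbours, only Trp53inp1 and Btg2 overlapped. In NCOA4 siRNA libraries Ccng1 (304 to 312 TPM) lay above Cdkn1a (276 to 288 TPM), the reverse of their order in control libraries. Btg2 lay next after Sesn1 there, above Trp53inp1 and Bcl6, and each overlapped the next in the sequence of Btg2, Trp53inp1, Bcl6 and Bmf. The 6 genes known best as p53 targets therefore did not move alike, with log2 differences of 1.18 for Btg2, 0.89 for Trp53inp1, 0.73 for Sesn1, 0.30 for Ccng1, 0.04 for Cdkn1a and -0.17 for Mdm2. Those taken here as FOXO targets did not either, with 1.58 for Bmf, 0.59 for Pik3ip1, 0.14 for Txnip and -0.48 for Bcl6.

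**Figure D2:**
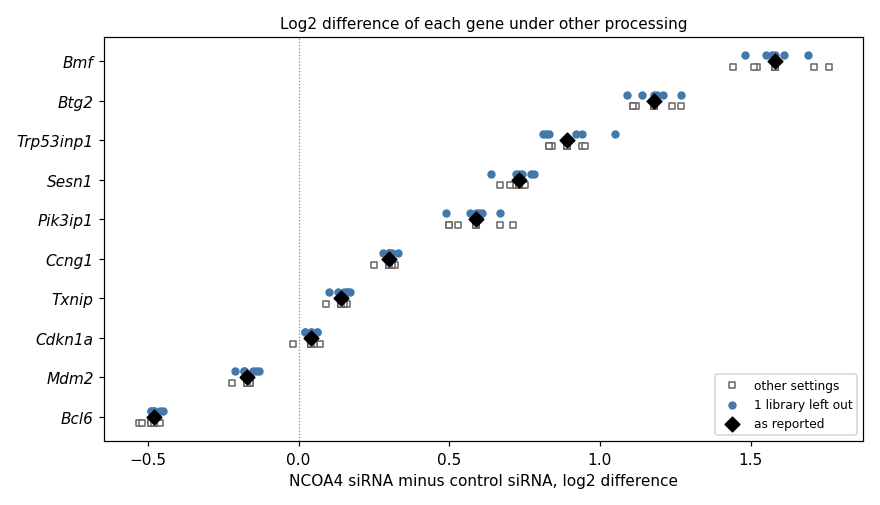
Log2 difference between NCOA4 siRNA and control siRNA (horizontal axis) for each of the 10 genes, as reported (diamonds), with 1 library left out (circles) and with other processing (squares). Every point of Bmf lies between 1.44 and 1.76, and Cdkn1a alone has points on both sides of 0.

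To place these genes in their pathways, other p53 and FOXO targets were listed from general knowledge and tested with limma on all genes. Earlier results of these data were known when the lists were written, so the lists are not independent of the data. Of the 13829 genes tested, 3.11% rose and 2.31% fell with NCOA4 siRNA at a limma p below 0.05 after Benjamini-Hochberg adjustment, that is, 57.3% of the changed genes rose. At an unadjusted p under 0.05, 12.7% of them were higher and 8.84% lower, and limma-voom called 6.91% higher and 4.00% lower of the 13608 genes with rebuilt reads. The share of changed genes that rose was 35.9% when libraries were centred on their medians and 49.2% after quantile normalization.

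The other p53 targets had a small median log2 difference, and more of them lay above 0 than below. Of 36 such genes 33 were tested, and 0 rose and 1 fell by limma, while 7 were higher and 1 lower at an unadjusted p under 0.05 and limma-voom called 3 higher and 1 lower. Their median log2 difference was 0.07, with a range of -0.51 to 0.31, and 24 lay above 0 and 9 below. Every NCOA4 siRNA library lay above every control library for 9 of the 33, and below for 3. Over all tested genes these shares were 16.6% and 11.8%. The gene that fell was Plk2, which encodes a stress-responsive polo-like kinase. It was at 76.6, 86.7 and 88.1 TPM in control and 59.1, 58.4 and 58.3 TPM in NCOA4 siRNA libraries (log2 difference -0.51, adjusted p = 0.00735 from limma), and its adjusted p was 0.0537 without NCOA4 siRNA replicate 2. The remaining genes with the smallest adjusted p-values did not pass, among them Phlda3, an AKT inhibitor, with a log2 difference of 0.20 (adjusted p = 0.0599 from limma), and Pmaip1, the BH3-only gene known as Noxa, with 0.31 (adjusted p = 0.0853 from limma). Ak1, Ercc5 and Pidd1 had log2 differences of 0.31, 0.23 and 0.22 and adjusted p-values of 0.111, 0.113 and 0.116 (limma).

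Of the 35 other FOXO targets 24 were tested, and 4 rose and 2 fell by limma, around a median log2 difference of -0.00. At an unadjusted p under 0.05, 7 were higher and 5 lower, and limma-voom called 5 higher and 3 lower. The 11 that were not tested include 8 at 0 in every library, such as the metabolic genes Pck1, G6pc and Pdk4. Selenop, which encodes the plasma carrier of selenium, had the largest difference of the list. It was at 24.4, 22.8 and 24.9 TPM in control and 68.8, 70.5 and 69.2 TPM in NCOA4 siRNA libraries (log2 difference 1.51, adjusted p = 1.55e-04 from limma). The other genes that rose were Rbl2, a pocket protein of quiescent cells (0.39, adjusted p = 0.0143 from limma), S1pr1, a receptor for sphingosine-1-phosphate (0.35, adjusted p = 0.00996), and Bcl2l11, the BH3-only gene known as Bim (0.31, adjusted p = 0.0340). Eif4ebp1, a repressor of cap-dependent translation, and Bnip3, a mitophagy receptor, fell by 0.39 and 0.30 on the log2 scale (adjusted p = 0.0190 and 0.0363 from limma). The list held 3, 1, 1 and 2 changed genes without control replicate 3 and NCOA4 siRNA replicates 1, 2 and 3, and the adjusted p of Bcl2l11 was above 0.05 with any single library left out.

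**Figure D3:**
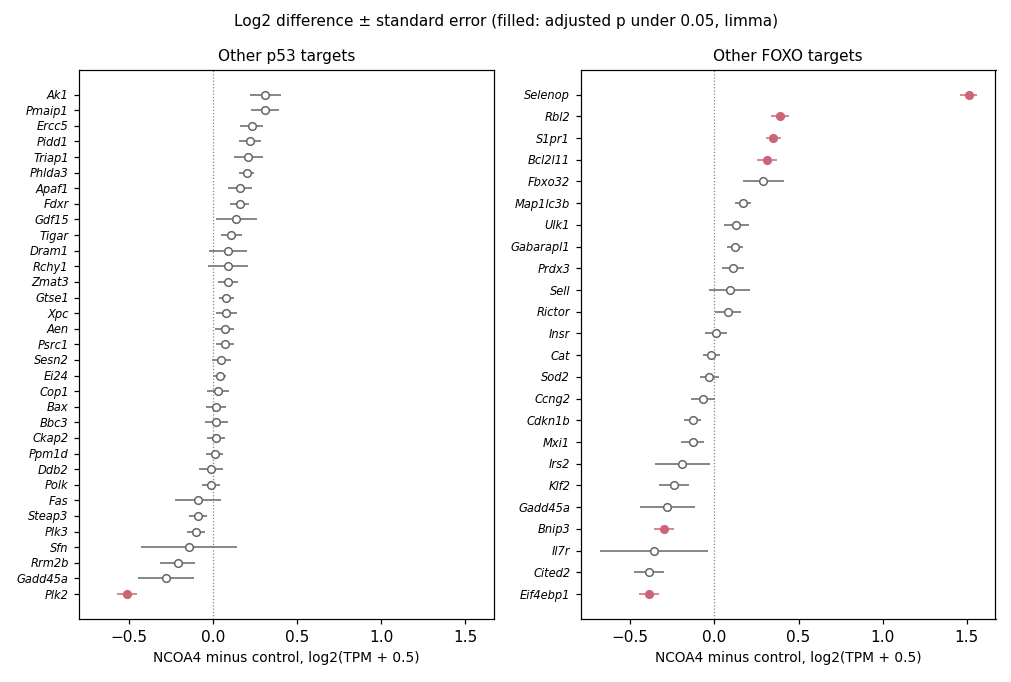
Log2 difference between NCOA4 siRNA and control siRNA, with its standard error (horizontal axes), of the tested p53 targets (left, 33 genes) and FOXO targets (right, 24 genes) outside the 10 genes. Filled points passed an adjusted p under 0.05 with limma, namely Plk2 on the left at -0.51 and 6 genes on the right, with Selenop at 1.51.

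Of the factors themselves, Trp53, Foxo1, Foxo3 and Foxo4 were tested and none passed, while Foxo6 and Trp63 were at 0 reads in all libraries and Trp73 had 1 read in all. Trp53, the gene for p53, was at 198, 191 and 199 TPM in control and 218, 216 and 216 TPM in NCOA4 siRNA libraries. These groups did not overlap, with a log2 difference of 0.14 (adjusted p = 0.0675 from limma), and it passed without control replicate 1 (adjusted p = 0.0474) and with limma-voom (adjusted p = 0.0324). With libraries centred on their medians the log2 difference was 0.08 (adjusted p = 0.271 from limma). Foxo3 was the most abundant FOXO gene at 35.9 ± 0.355 and 36.8 ± 0.594 TPM (SD, n = 3 each, log2 difference 0.03), ahead of Foxo4 at 8.06 and 7.58 TPM and Foxo1 at 1.39 and 1.26 TPM. Mdm4, the relative of Mdm2 that inhibits p53, had a log2 difference of 0.13. Cdkn2a, the gene for the MDM2 inhibitor ARF, was at 0 reads in all 6 libraries. Of the 28 factors and regulators 24 were tested, and 2 rose while 0 fell by limma. At an unadjusted p under 0.05, 4 were higher and 3 lower, and limma-voom called 4 higher and 2 lower. Those that rose by limma were Chek2, the DNA damage kinase that phosphorylates p53, and Pik3r1, a regulatory subunit of PI3K. Chek2 went from 19.7 ± 0.758 to 25.5 ± 1.58 TPM and Pik3r1 from 14.7 ± 0.240 to 17.7 ± 0.293 TPM (SD, n = 3 each). Their adjusted p-values were 0.0247 and 0.0330 (limma). Neither passed when control replicate 3 or any NCOA4 siRNA replicate was left out, and Pik3r1 did not pass when control replicate 2 was left out, with the libraries centred on their medians or with quantile normalization. Chek2 did not pass with eBayes lacking a trend. Other PI3K subunit genes were lower without passing. Pik3r2, another regulatory subunit, had means of 80.8 TPM in control and 68.5 TPM in NCOA4 siRNA libraries (log2 difference -0.24, adjusted p = 0.0527 from limma). Pik3cb, a catalytic subunit, had a log2 difference of -0.27 (adjusted p = 0.0652 from limma).

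Close relatives of the 10 genes had differences in both directions, 13 above and 7 below 0. Of 29 relatives 20 were tested, with a median log2 difference of 0.12 and a range of -0.16 to 0.33, and 1 rose (Bcl2l11, above) while 0 fell by limma. Another 8 were higher and 2 lower at an unadjusted p under 0.05, and limma-voom called 6 higher and 0 lower. Btg1, the relative of Btg2, had a log2 difference of 0.29 (adjusted p = 0.202 from limma), and control replicate 1 (47.0 TPM) was far below the other control libraries (62.7 and 63.0 TPM). Without that library its log2 difference was 0.15 (adjusted p = 0.0759 from limma), and with limma-voom it was 0.30 (adjusted p = 0.0326). Trp53inp2 was at 0.27 (adjusted p = 0.151 from limma), Sesn2 at 0.05, Ccng2 at -0.07 and Cdkn1b, the gene for p27, at -0.13, and Sesn3 was at 0 reads in all libraries. The difference between a gene and its relative was not tested.

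Among 9 binding partners of Bmf, the survival gene Bcl2l1 fell from 140, 133 and 138 TPM to 99.2, 104 and 94.5 TPM (log2 difference -0.46, adjusted p = 0.00505 from limma), and the other 8 did not pass. Of 6 tested regulators and partners of Txnip, 0 rose and 0 fell by limma, also with 0 at an unadjusted p under 0.05 and 0 by limma-voom. They include Mlxip, the gene for the glucose-sensing factor MondoA, at 0.08 (adjusted p = 0.352 from limma), and Arrdc4, another known MondoA target listed as a relative of Txnip, was at -0.03 (adjusted p = 0.905 from limma). Of 30 cell cycle genes all 30 were tested, with a median of -0.02, and 3 fell while 0 rose by limma. At an unadjusted p under 0.05, 1 was higher and 5 were lower, and limma-voom called 1 higher and 3 lower. The genes that fell by limma were Cdk6 (-0.30), Ccne1 (-0.22) and Ccnd1 (-0.20), with adjusted p-values of 0.0368, 0.0373 and 0.0239. Leaving out control replicate 1 gave a count of 2, leaving out control replicate 3 gave 1, and leaving out control replicate 2 or any NCOA4 siRNA replicate gave 0, as did eBayes lacking a trend.

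**Figure D4:**
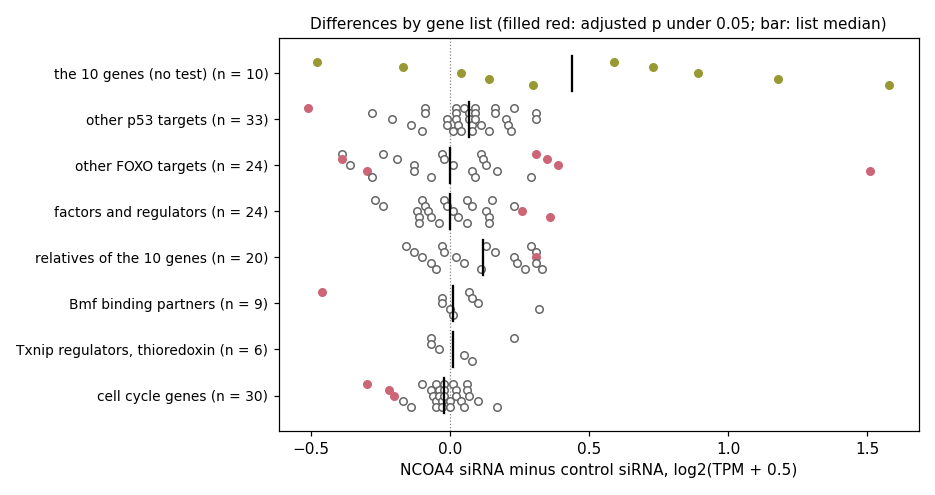
Log2 difference between NCOA4 siRNA and control siRNA (horizontal axis) for the tested genes of the 10 genes and of 7 other lists, macrophage markers not drawn, with list medians as bars and genes with an adjusted p under 0.05 filled in red. The 10 genes, which have no test, spread from -0.48 to 1.58, while the 7 other lists drawn have medians of -0.02 to 0.12 (macrophage markers, 0.26).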

How the data were processed

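The authors deposited TPM for each Ensembl gene in each library, which corrects for gene length and sequencing depth, and no scaling beyond that was added here. The submitters' processing notes name Trimmomatic 0.33, FastQC, HISAT2 2.1.0, featureCounts, edgeR and mm10. The annotation release is not given in the sources used here. The authors tested raw counts with edgeR, and since the files analysed here hold TPM, limma on a log scale was used. Symbols, positions and exon lengths came from GENCODE M21 (GRCm38), which held 55227 of the 55487 identifiers. Reads were rebuilt from TPM and exon length, and 98.4% of 21096 genes above 0 gave whole numbers within 0.01 reads.

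Genes averaging 0.5 TPM or more entered 1 fit of log2(TPM + 0.5), made in limma 3.58.1 under R 4.3.3 by lmFit with group as the only term and by eBayes allowing a trend, and p-values were adjusted over 13829 genes by the Benjamini-Hochberg method. A gene rose or fell when its adjusted p was under 0.05. The fit was first run on simulated reads with the same relative spread for every gene and no library standing apart. Control replicate 1 did stand apart here, so that run does not show how the fit handles these data. The 10 genes and all lists were chosen with earlier results of these data known. Genes outside the 10 could be named when they changed by more than 1.5-fold, had 1 of the 6 smallest adjusted p-values of a list, or were set as a factor or relative, and the rest are given as counts. Replicates are separate biological replicates per the labels.

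Values were recomputed, where an alternative could give one, with pseudocounts of 1 and 0.1, without the expression filter, with a filter of 5 TPM, with median centring, with quantile normalization, with eBayes lacking a trend, with limma-voom on rebuilt reads, with a replicate block and with each library left out. Pik3ip1, Foxo1 and Arrdc4 fall below the filter of 5 TPM, and the count of genes without overlap was recomputed only where the library values themselves change.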

Additional observations from a re-analysis of the deposited data

How the results depend on the processing

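For the 10 genes, the log2 difference kept its sign under all alternatives except for Cdkn1a, and it moved by more than the spread between replicates only for Bmf with limma-voom (1.76), for Ccng1 with median centring (0.25), for Cdkn1a with median centring (-0.02) and for Bcl6 with median centring (-0.53) and quantile normalization (-0.52). The number of these genes without overlap was 9 to 10 with single libraries left out. It could not fall there, because taking out a library cannot make separate groups overlap. Of all tested genes, 750 changed as reported, against 499 without a filter, 404 without a trend, 1484 with limma-voom and 127 to 807 with single libraries left out. The p53 targets changed numbered 2 with a filter of 5 TPM, 2 with quantile normalization, 4 with limma-voom and 0 to 1 with single libraries left out, and the FOXO targets 3 without a trend and 1 to 6 with single libraries left out. The cause of these shifts was not tested. With the replicate block, 161 of all genes and 3 FOXO targets changed, p53 targets stayed at 1, and the calls of Chek2, Pik3r1, Bcl2l11 and the 3 cell cycle genes were lost, and 1 macrophage marker rose. Deviations of same-numbered libraries from their group means correlated at 0.03, -0.02 and 0.02 over genes, so no pairing was seen in these values. With 3 libraries per group, this cannot show that same-numbered libraries shared no batch. Depth limits Pik3ip1, Bmf and Btg2 most, at fewer than 100 reads per control library.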
